A study of Mus musculus with 2 samples.

Results

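The respiratory chain of mitochondria moves electrons from NADH and succinate to oxygen, and its complexes I, III and IV pump protons while they do so. Most subunits of these complexes are encoded in the nucleus, made in the cytosol and imported, whereas 13 subunits of the chain and of the ATP synthase are encoded by the mitochondrial genome itself. Progenitors of the embryonic brain are generally described as relying heavily on glycolysis, and neurons as relying on oxidative phosphorylation, and maturing red blood cells end by discarding their mitochondria. Here the transcripts of the nuclear subunits were followed in the embryonic mouse telencephalon, and 63 genes were taken by symbol (all Nduf genes of classes a, b, c, s and v, all Uqcr genes, and the Cox4 to Cox8 families, without *Ndufa4l2*, assembly factors and pseudogenes) of 28001 listed features in one library and 32286 in the other. All 63 were listed in both, with 36 genes in complex I, 8 in complex III and 19 in complex IV, where *Ndufa4* is counted with complex IV.

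Both libraries are droplet single cell libraries of C57BL/6J mice, labelled wild-type, with 1 library per condition. The septal explants were pooled from 8 PGKCre;Rosa26YFP embryos at E11.5 and 4 Dbx1Cre;Rosa26tdTomato embryos at E12.5, from 2 litters of each kind, so that Cre and a Rosa26 reporter were present in both kinds of embryo. PGKCre is active in all cells, and Dbx1Cre in cells that express Dbx1 and in their progeny. The telencephalic vesicle library came from 3 WT embryos of 2 litters, labelled E12 and aged E11.5 to E12 by the methods. Embryos cannot be told apart within a library, and the libraries were made with different kits and software, so that levels were compared within a library only. The septal explants gave 5387 kept cells with a median of 12884 unique transcript molecules (UMIs), and the vesicle 11851 kept cells with a median of 9098. The libraries shared 1 cell barcode.

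Cells were clustered without the 63 genes, and clusters were called by their likeness to marker genes. Apical progenitor-like cells (APs) numbered 3283 in the septal explants and 6909 in the vesicle, basal progenitor-like cells (BPs) 767 and 609, and neuron-like cells 1081 and 1611. The classes were named by the markers that follow, so the difference in these markers comes from the naming and is no check of it. The 11 neuron markers such as *Tubb3* summed to 791 CPM (UMIs per 1000000 UMIs of a class) in septal APs and 15016 CPM in septal neurons. In the vesicle they summed to 669 and 10140 CPM. The 8 AP markers such as *Vim* went from 2621 to 1028 CPM and from 2766 to 805 CPM. The vesicle also held 401 erythroid-like, 495 mesenchymal-like, 71 macrophage-like and 28 endothelial-like cells, and the septal explants only 26 erythroid-like cells, too few for a fold under the minimum of 50 cells. A further 230 and 1727 cells stayed without a name. Clusters were rebuilt here and may differ from those of the study.

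The share of all UMIs that fell on the 63 genes was nearly flat from progenitors to neurons. In the septal explants it was 2.07% in APs (95% interval 2.07 to 2.08%), 2.08% in BPs (2.07 to 2.09%) and 2.15% in neurons (2.15 to 2.16%). In the vesicle it was 1.28% in APs (1.28 to 1.28%), 1.304% in BPs (1.29 to 1.31%) and 1.36% in neurons (1.36 to 1.37%). These are exact Poisson intervals of summed UMIs, and like all intervals given here they cover counting error only, not the spread between embryos. Single cells overlapped broadly, since the share ran from 1.84% at the 10th percentile to 2.33% at the 90th in septal APs and from 1.87 to 2.42% in septal neurons, and from 1.05 to 1.75% and 1.05 to 1.80% in the vesicle. With 1 library per condition, no test between classes was possible.

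**Figure D1:**
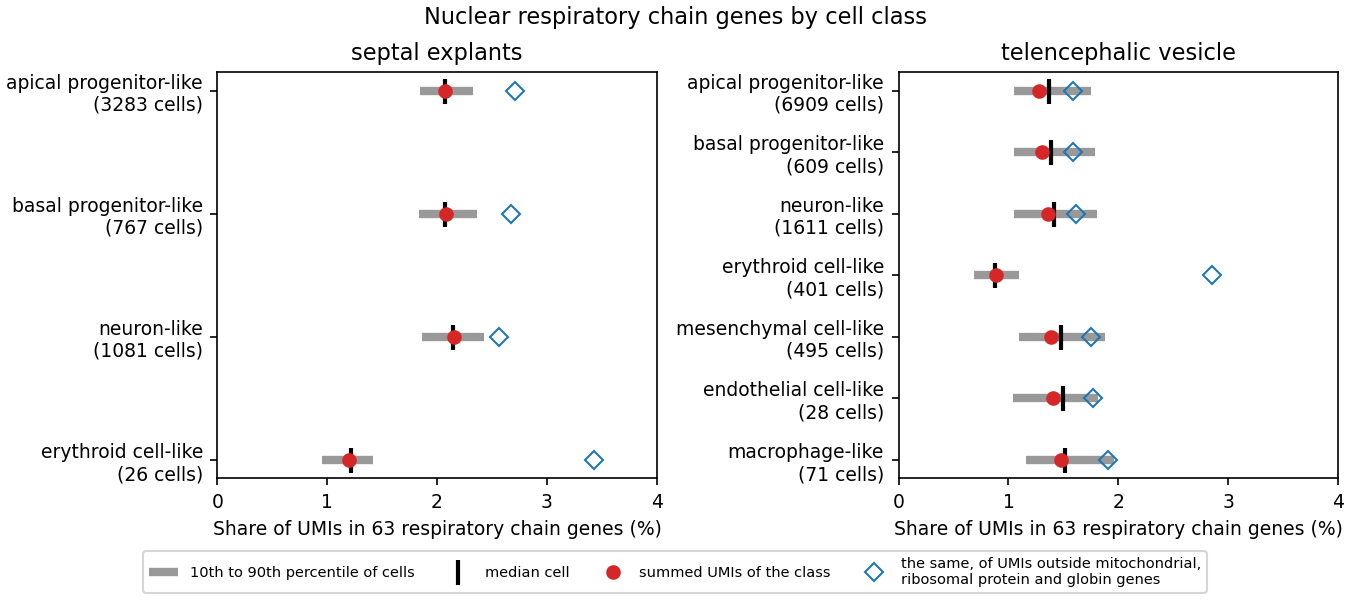
Share of UMIs in the 63 genes by cell class, on the horizontal axis in percent, for septal explants (left) and telencephalic vesicle (right). Red points are summed UMIs, grey bars the 10th to 90th percentile of cells, black ticks the median cell, and blue diamonds the share of UMIs outside mitochondrial genome, ribosomal protein and globin genes. AP, BP and neuron classes overlap almost completely, whereas erythroid-like cells of the vesicle lie at 0.890% of all UMIs and at 2.85% of the other UMIs.

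Neurons over APs gave a fold of 1.04 in the septal explants (1.03 to 1.04) and 1.07 in the vesicle (1.06 to 1.07), and neither direction was secure. Per UMI of genes outside the mitochondrial genome, ribosomal protein and globin genes, the fold was 0.947 in the septal explants and 1.02 in the vesicle. The choice of denominator matters because ribosomal protein transcripts themselves went from 21.4% of UMIs in APs to 13.7% in neurons of the septal explants, and from 16.8 to 11.95% in the vesicle. Against APs with few cell cycle transcripts the folds were 1.003 and 1.009.

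Depth moved with the share in the vesicle, and it differed between the classes. The median was 11212 UMIs in vesicle APs and 6938 in vesicle neurons. When the cells were split into 4 bands of depth with equal cell numbers in the library, the share of the 63 genes in vesicle APs went from 1.63% in the shallowest band over 1.52 and 1.39% to 1.21% in the deepest. In vesicle neurons it went from 1.55% over 1.39 and 1.27% to 1.15%. Within each of the 4 bands neurons were therefore lower than APs, with folds of 0.949, 0.912, 0.914 and 0.955, although the fold over all cells was above 1. With the bands weighted alike in both classes, an alternative added after seeing the data and called matched depth from here on, the fold was 0.932. Depth was matched by band only, and cells within a band could still differ in depth. The deepest vesicle band ran from 14278.5 to 207131 UMIs, with 2450 APs and 91 neurons. In the middle of the depth range the vesicle fold was 0.936, but with cells thinned to 3500 UMIs it was 1.02. The direction in the vesicle thus depended on how depth was handled. In the septal explants, where the medians were 14387 UMIs in APs and 11371 in neurons, AP shares ran only from 2.13 to 2.05% and neuron shares from 2.14 to 2.19%. The folds there were 1.004, 1.011, 1.05 and 1.07 from the shallowest to the deepest band, and 1.03 at matched depth. What ties depth to the share in the vesicle was not tested. Matched-depth folds are given for the members whose vesicle fold of neurons over APs is printed, where they move that fold across 1 or across a limit.

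**Figure D2:**
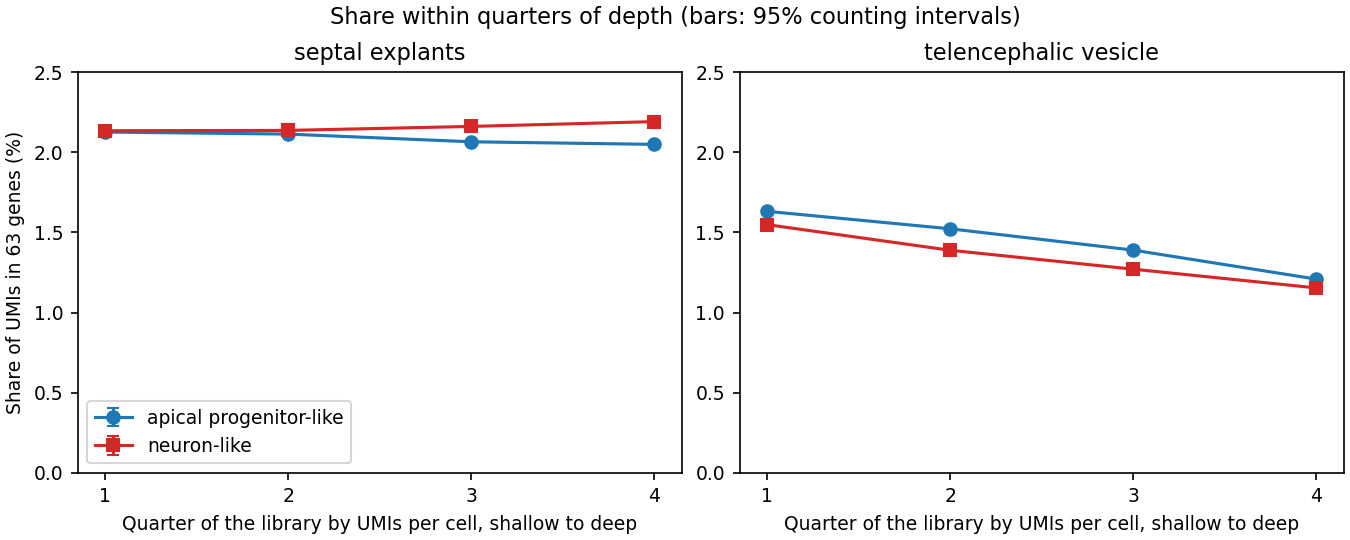
Share of UMIs in the 63 genes (vertical axis, percent) in 4 bands of depth from shallow to deep (horizontal axis), for apical progenitor-like (blue circles) and neuron-like cells (red squares) of each library, with 95% counting intervals that are mostly smaller than the symbols. In the vesicle both classes fall with depth and neurons lie below APs in each band, and in the septal explants neurons lie at or above APs.

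Neural cells were also ordered along a continuous axis of differentiation, by the ratio of 11 neuronal to 8 progenitor genes, in 10 bins with equal cell numbers. The bins were not matched for depth. In the vesicle the median was 10938 UMIs in the first bin, 6680 in the ninth and 7186.5 in the last. In the septal explants it was 15318 in the first and 11917 in the last. A flat share over these bins is thus not one at matched depth. The share of the 63 genes stayed between 2.05 and 2.14% in the septal explants and between 1.26 and 1.38% in the vesicle. Over the same bins, 76 ribosomal protein genes went from 21.5 to 12.1% of UMIs and from 16.2 to 10.7%, and cell cycle genes from 1.75 to 0.318% and from 1.69 to 0.313%. The 13 mitochondrial genome subunits had their lowest share, 2.07%, in the fourth septal bin and their highest, 2.40%, in the ninth, and went from 2.34% in the third vesicle bin to 3.00% in the last. Per complex, complex IV went from 0.841% in the first to 0.897% in the last septal bin and from 0.512 to 0.573% in the vesicle, while complex III went from 0.309 to 0.300% and from 0.172 to 0.162%.

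**Figure D3:**
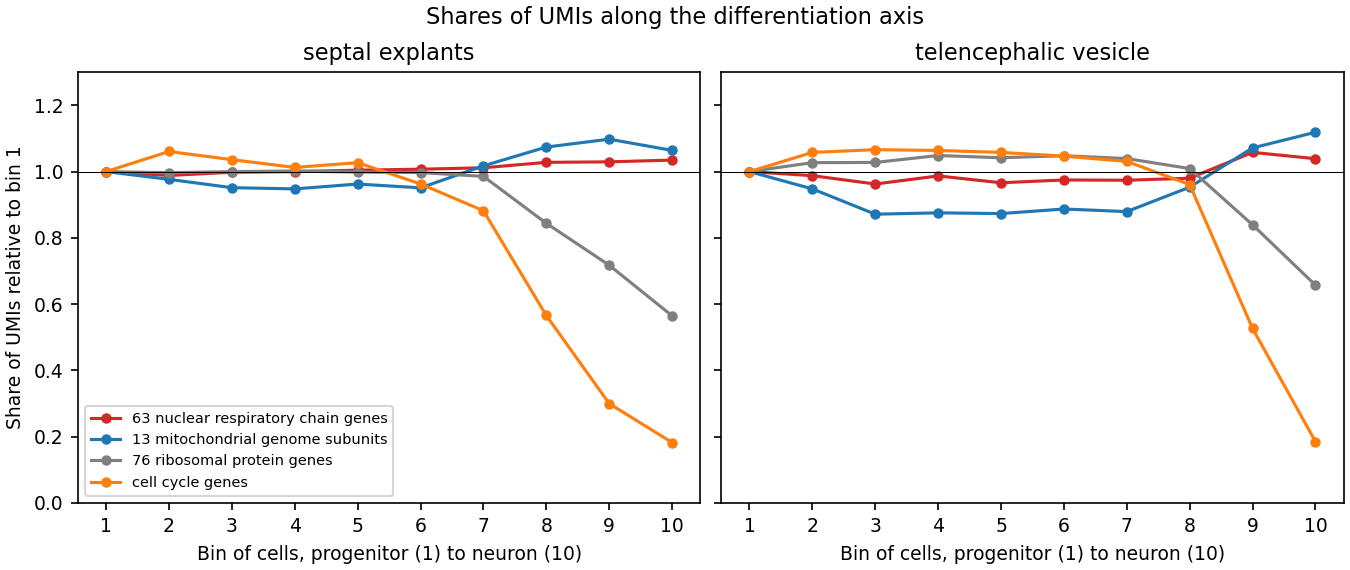
Shares of UMIs relative to the first of 10 bins (vertical axis) of neural cells ordered from progenitor to neuron (horizontal axis). The bins are not matched for depth. The 63 nuclear genes (red) stay close to 1 in both libraries, the 13 mitochondrial genome subunits (blue) end slightly above it, and ribosomal protein genes (grey) and cell cycle genes (orange) fall in the last bins.

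Progenitor domains were called by markers too, and 2 septal clusters of APs led by *Nkx2-1* (196 cells) and 1 of neurons led by *Calb2* (154 cells) were left without a domain. A vesicle cluster of 960 cells with *Nkx2-1* among its leading genes was called subpallial-like. Subpallial-like APs are therefore unlike sets of cells in the 2 libraries. In the vesicle the APs include a cluster of 239 cells led by *Ttr*, *Trpm3* and *Clic6*, genes known from the choroid plexus, whose AP markers had a mean z score of only 0.14 among the clusters. Without it, an alternative added after seeing the data, the vesicle fold of neurons over APs was 1.07, with 10 members higher and 4 lower as before.

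Progenitor and neuron classes were also paired by domain, without tracing of lineage. The fold from pallial-like APs to glutamatergic-like neurons was 1.04 in the septal explants and 1.01 in the vesicle. From subpallial-like APs to GABAergic-like neurons it was 0.998 and 1.12, from hem-like APs to Cajal-Retzius-like cells 1.06 and 1.12, and from septal-like APs to glutamatergic-like neurons 1.09 and 1.07. With depth bands weighted alike these 4 vesicle folds were 0.871, 0.974, 0.929 and 0.955, with as few as 21 cells in a band. The same glutamatergic-like neurons, 304 and 708 cells, served the pallial-like and the septal-like pairing. *Tbr1* was a leading gene of the vesicle cluster and of the larger septal cluster (202 cells). The study describes septal-derived excitatory neurons as lacking *Tbr1*, so the septal-like pairing may not follow a lineage. In the septal explants, which hold YFP embryos, septal APs with at least 3 YFP UMIs had a share of 2.06% and those without any had 2.08%, so that the share moved little with the kind of embryo as far as the reporter shows it.

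Gene by gene, the members were far less spread than all genes tested. Here and below, the shares over all genes come from genes not matched to the members in number of UMIs. Counting error widens the folds of genes with few UMIs, and its part in the difference was not tested. Members with at least 200 UMIs over both classes numbered 57 in the septal explants and 58 in the vesicle, and 80% of them had folds between 0.857 and 1.27 and between 0.823 and 1.34, against 0.372 to 2.61 and 0.321 to 2.53 for all genes tested. Higher in neurons by at least 25% were 7 members in the septal explants, or 12.3% of those tested, where 36.3% of 10625 genes were, and 10 members in the vesicle, or 17.2%, where 31% of 13360 genes were. Lower by at least 20%, the reciprocal, were 4 members in each library, or 7.02 and 6.90%, against 32.9 and 40.5% of all genes. *Cox4i2*, counted among the 4 in the vesicle, met the minimum of 200 UMIs only through the APs, with 353 UMIs there and 18 in neurons. Its call is therefore no independent result. The median fold of the members was 1.05 and 1.07, and that of all genes 1.03 and 0.922, which in the vesicle is a shift of -0.12 on the log2 scale. Divided by that median, 23 vesicle members were past the limit of 25% upwards and 3 past that of 20% downwards. The shares of all genes after the same division are not given, and those above are undivided. With depth bands weighted alike, 6 septal members were higher and 4 lower, and 3 vesicle members were higher and 12 lower. All genes then gave 35.9% higher and 32.8% lower in the septal explants, and 32.5 and 37.6% in the vesicle.

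The order of the members was alike in both libraries. Of 57 members tested in both, 35 had a fold above 1 in both and 18 below 1 in both, and only *Cox5a*, *Ndufa3*, *Ndufs3* and *Uqcrc1* differed in direction. Of all genes tested, 51.82% were above 1 in the septal explants and 44.55% in the vesicle. How far all genes agreed between the libraries is not given, so the agreement cannot be read as particular to the members. Spearman's rho between the log2 folds was 0.818 and Pearson's r 0.842 across genes, which are not independent replicates, and the libraries shared no embryos according to the labels. With depth bands weighted alike, rho was 0.895, with 19 members above 1 in both, 20 below 1 in both and 18 in opposite directions, since the vesicle folds then lay lower as a whole. *Ndufa3* was then below 1 in both, at 0.9285 in the septal explants and 0.894 in the vesicle.

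**Figure D4:**
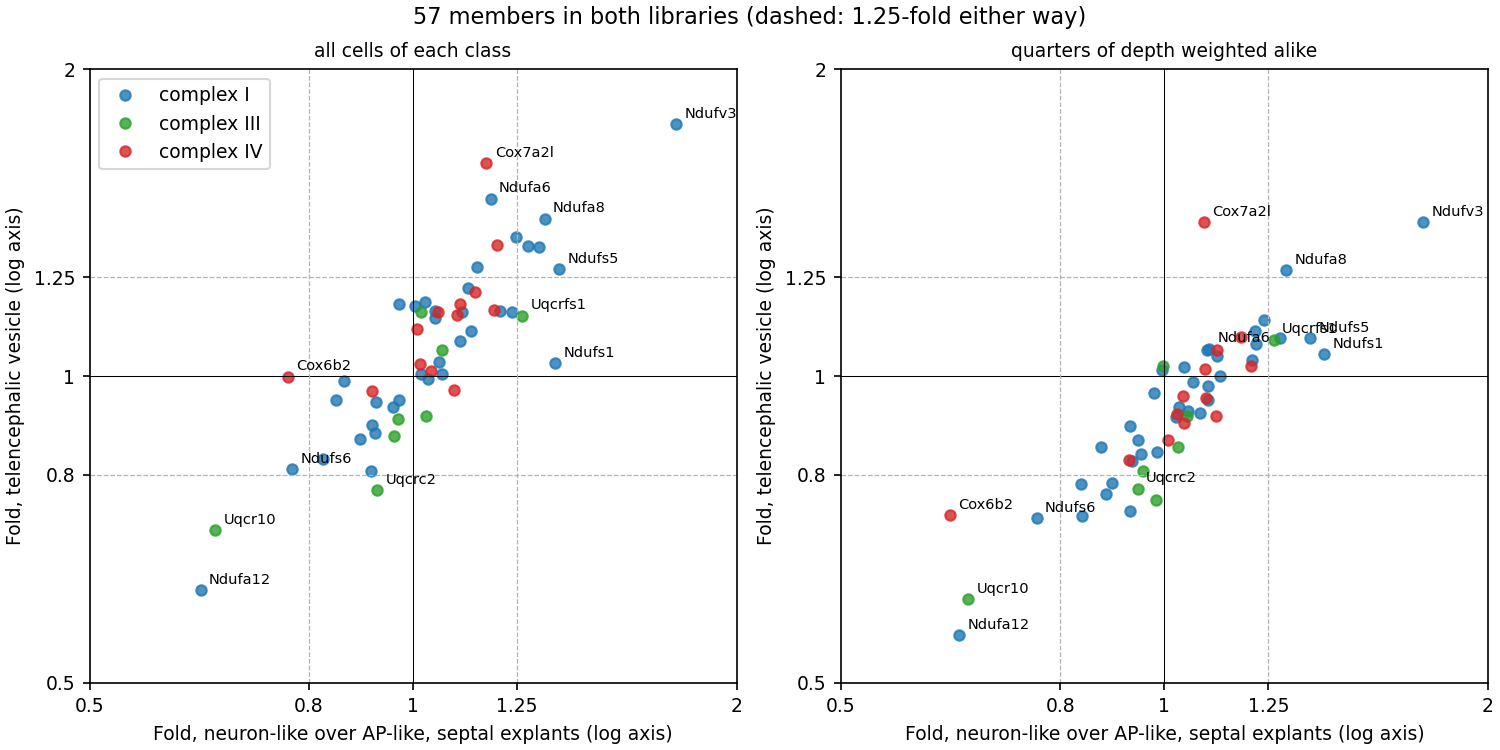
Fold of neuron-like over AP-like cells of 57 members in the septal explants (horizontal, log axis) and in the telencephalic vesicle (vertical, log axis), from all cells (left) and with depth bands weighted alike (right), coloured by complex. *Ndufv3* stands at the upper right and *Ndufa12* and *Uqcr10* at the lower left in both panels, and most other members lie within the dashed lines that mark 25% higher and 20% lower.

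Complex I takes electrons from NADH through a peripheral arm of flavin and iron-sulfur subunits. Its 7 nuclear core subunits summed to folds of 1.004 in the septal explants (0.987 to 1.02) and 0.970 in the vesicle (0.952 to 0.989). *Ndufs1*, the largest iron-sulfur subunit, had 57.9 CPM in septal APs, 67.1 in BPs and 78.5 in neurons, a fold of 1.36 (1.26 to 1.46), but 54.7, 62.0 and 56.2 CPM in the vesicle, a fold of 1.03 (0.952 to 1.11). *Ndufs7*, which carries the last iron-sulfur cluster before ubiquinone, had folds of 0.824 and 0.829, and with depth bands weighted alike 0.838 and 0.730. *Ndufs3*, *Ndufs8*, *Ndufv1* and *Ndufv2* passed neither limit in either library over all cells. *Ndufs3* had folds of 1.03 and 0.994, *Ndufs8* 1.10 and 1.08, *Ndufv1*, which binds the flavin, 1.02 and 1.01, and *Ndufv2* 0.892 and 0.868. At matched depth the vesicle folds of *Ndufs8*, *Ndufv1* and *Ndufv2* were 0.947, 0.987 and 0.765, so that *Ndufv2* was then over 20% lower.

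The accessory subunits of complex I, which carry no redox centres, held both extremes of the complex. *Ndufv3*, a small subunit beside the flavin site (chr17:31520115-31531331, plus strand, mm10), had 193 CPM in septal APs, 200 in BPs and 339 in neurons, and 67.8, 76.6 and 120 CPM in the vesicle. Its folds were 1.76 (1.70 to 1.82) and 1.77 (1.67 to 1.86), the highest of all members in both libraries, and 1.74 and 1.42 with depth bands weighted alike. It was over 25% higher under all 12 other settings that keep the limits and the filter on low counts, with folds between 1.55 and 1.79 in the septal explants and between 1.45 and 1.92 in the vesicle. In BPs it was close to the APs, so that the difference lay on the neuronal side.

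*Ndufa12*, an accessory subunit that takes the place of an assembly factor late in the building of complex I (chr10:94198720-94221443, plus strand), was the reverse. It had 476 CPM in septal APs, 412 in BPs and 302 in neurons, and 304, 262 and 188 CPM in the vesicle, with folds of 0.634 (0.613 to 0.656) and 0.617 (0.592 to 0.643). It was over 20% lower under the same 12 settings in both libraries and in each of the 4 depth bands, where its folds ran from 0.6003 to 0.686 and from 0.504 to 0.627. Already in BPs it lay between APs and neurons. *Ndufs6*, a zinc-binding subunit of the same arm, had folds of 0.772 and 0.810, with 0.761 and 0.725 at matched depth, and *Ndufab1*, the mitochondrial acyl carrier protein, 0.914 and 0.808. *Ndufa2* had 0.848 and 0.947. At matched depth the vesicle folds of *Ndufab1* and *Ndufa2* were 0.736 and 0.783, both over 20% lower.

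Several other accessory subunits of complex I were higher in neurons. *Ndufs5* had 254 CPM in septal APs and 348 in neurons, and 162 and 207 in the vesicle, with folds of 1.37 and 1.27. *Ndufa8* had folds of 1.33 and 1.43, *Ndufa1*, which is X-linked, 1.31 and 1.34, and *Ndufb10* 1.28 and 1.34. These 4 and *Ndufv3* were the members over 25% higher in both libraries. At matched depth the vesicle folds of *Ndufs5*, *Ndufa1* and *Ndufb10* were 1.09, 1.09 and 1.14, and of these 5 only *Ndufv3* and *Ndufa8*, at 1.27, were still over 25% higher in both. *Ndufa6*, which binds the acyl carrier protein, had 1.18 in the septal explants and 1.49 in the vesicle, where matched depth gave 1.06. *Ndufb2* had 1.248 and 1.37, with 1.11 at matched depth in the vesicle.

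Complex III passes electrons from ubiquinol to cytochrome c. Its 8 members summed to folds of 0.980 (0.969 to 0.991) and 0.969 (0.955 to 0.982), and 0.977 and 0.868 at matched depth. *Uqcr10*, one of its smallest subunits (chr11:4701973-4704342, minus strand), had 399 CPM in septal APs, 337 in BPs and 261 in neurons, and 171, 159 and 121 in the vesicle. Its folds were 0.654 (0.631 to 0.678) and 0.706 (0.671 to 0.743), and it was over 20% lower under the same 12 settings in both. *Uqcrfs1*, the Rieske iron-sulfur protein, went the other way, with 300 CPM in septal APs and 379 in neurons, a fold of 1.26 (1.22 to 1.31), and 1.15 in the vesicle (1.10 to 1.19). The core proteins *Uqcrc1* and *Uqcrc2* had folds of 1.03 and 0.926 in the septal explants and of 0.914 and 0.772 in the vesicle.

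Complex IV, cytochrome c oxidase, hands the electrons to oxygen. Its 19 members summed to folds of 1.07 (1.07 to 1.08) and 1.12 (1.12 to 1.13), against 1.03 and 1.04 for complex I. At matched depth complex IV summed to 1.07 and 0.973, and complex I to 1.018 and 0.9145, below 1 in the vesicle. Most of the members with most UMIs were among them, with *Uqcrh*, the hinge protein of complex III, as the exception. By number of UMIs, which a 3′ kit counts once per molecule whatever the length, they were *Cox4i1*, *Cox7c*, *Cox8a*, *Cox6c* and *Ndufa4* in the septal explants, with 58491 to 97483 UMIs in kept cells, and *Cox4i1*, *Cox5a*, *Cox8a*, *Ndufa4* and *Uqcrh* in the vesicle, with 80578 to 188967. Their folds lay between 0.915 (*Cox8a*) and 1.11 (*Cox4i1*) in the septal explants and between 0.968 (*Cox8a*) and 1.18 (*Cox4i1*) in the vesicle. At matched depth the 5 vesicle folds lay between 0.828 (*Cox8a*) and 1.02 (*Uqcrh*), with *Cox4i1* also at 1.02 and *Ndufa4* at 0.899. *Cox7a2l* had 235 CPM in vesicle APs, 308 in BPs and 380 in neurons, a fold of 1.62 (1.57 to 1.67), and 1.42 at matched depth. In the septal explants the same gene had 461, 582 and 539 CPM, a fold of 1.17 (1.14 to 1.20). *Cox6a1* had folds of 1.20 and 1.35, with 1.09 at matched depth in the vesicle.

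Sequence upstream of the start is shown for *Uqcr10* and *Cox7a2l*, lower and higher in neurons respectively, as RefSeq gives it on GRCm38.p6, 250 bases on the gene's strand and outside annotated exons. The *Cox7a2l* window lies within an intron of longer transcripts of the gene (chr17:83514334-83514583, minus strand), and the *Uqcr10* window overlaps no annotated gene (chr11:4704345-4704594, minus strand). Capitals mark the only match to the motifs searched, an Sp1-type GC box.
Uqcr10: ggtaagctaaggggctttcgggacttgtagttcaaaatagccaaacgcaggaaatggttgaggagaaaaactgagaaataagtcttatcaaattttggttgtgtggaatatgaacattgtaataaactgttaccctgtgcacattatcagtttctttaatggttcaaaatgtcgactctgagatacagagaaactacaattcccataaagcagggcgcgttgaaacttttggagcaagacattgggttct
Cox7a2l: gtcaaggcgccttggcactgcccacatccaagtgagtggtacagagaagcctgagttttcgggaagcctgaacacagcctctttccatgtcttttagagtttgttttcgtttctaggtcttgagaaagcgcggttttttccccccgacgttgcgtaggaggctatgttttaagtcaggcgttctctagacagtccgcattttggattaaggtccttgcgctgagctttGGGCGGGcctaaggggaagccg
The motifs were searched on both strands in the 53 upstream windows found for 51 of the 63 members, against all 32851 windows. GCGCANGCG of NRF1 was in 15.1% of the members' windows and in 5.16% of all. CCGGAAG of the GABPA type of ETS factors was in 13.2 and 6.91%, ATGGCGG of YY1 in 7.55 and 2.21%, AAGGTCA of estrogen-related receptors in 5.66 and 4.08%, and GGGCGGG of Sp1 in 28.3 and 23.4%. The median GC content of the windows was 55.2% for members and 52.4% for all. These are matches of letters only. Of the members past the limits in both libraries over all cells, the lower *Ndufa12* and *Uqcr10* had no match. Of the higher ones *Ndufb10* had none either. *Ndufa8* had matches to NRF1 and Sp1, *Ndufv3* to Sp1, *Ndufs5* to NRF1 and estrogen-related receptors, and *Ndufa1* to YY1. At matched depth *Ndufs6* and *Cox6b2* were also over 20% lower in both, and they had matches to NRF1 and to Sp1 respectively.

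Complex IV has tissue isoforms, and the ubiquitous form held nearly all UMIs of each pair. The muscle forms *Cox6a2* and *Cox8b* and the testis forms *Cox8c* and *Cox7b2* had 0, 0, 1 and 3 UMIs in the septal explants and 2, 1, 1 and 10 in the vesicle, and they were the members not tested there, together with *Cox7a1* in both libraries and *Cox4i2* in the septal explants. For a count of 0 over the 5387 septal cells the exact interval ends at 0.0475 CPM. *Cox4i2*, the lung form that takes the place of *Cox4i1*, had 2.57 CPM against 1218 for *Cox4i1* in septal APs and 2.55 against 1040 in vesicle APs. *Cox4i2* was at 1.38 CPM in vesicle neurons, a fold of 0.544 (0.318 to 0.872), from 18 UMIs in neurons, and at 0.455 CPM in septal neurons from 6 UMIs. It was higher in macrophage-like cells, at 13.8 CPM (8.03 to 22.1), and in mesenchymal-like cells, at 6.88 CPM (5.08 to 9.13). *Cox7a1*, the heart and muscle form of *Cox7a2*, had 1.96 CPM in septal APs and 1.36 in vesicle APs, against 556 and 321 CPM for *Cox7a2*. The forms found in all tissues had folds of 1.14 and 1.21 for *Cox6b1*, 1.19 and 1.16 for *Cox7a2*, and 1.02 and 1.03 for *Cox7b*. At matched depth their vesicle folds were 1.06, 1.02 and 0.864.

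*Cox6b2*, a form of *Cox6b1* described in testis (chr7:4751792-4753094, minus strand), was the exception. It had 45.6 CPM in septal APs, 34.8 in BPs and 34.9 in neurons, and 14.0, 9.83 and 14.0 CPM in the vesicle, against 693 and 331 CPM for *Cox6b1* in APs. Its septal fold was 0.765 (0.691 to 0.846), and its vesicle fold was 0.999, with 0.730 at matched depth. *Cox6b2* also differed between progenitor domains, and the part of the mix of domains in these folds was not tested. In the septal explants it was at 97.9 CPM in septal-like APs, 57.4 in subpallial-like, 37.6 in hem-like and 18.8 in pallial-like APs, and in the vesicle at 23.5, 14.3, 14.2 and 5.24 CPM. The AP clusters led by *Nkx2-1* in the septal explants and by *Ttr* in the vesicle had 75.4 and 33.4 CPM. Septal-like over pallial-like APs gave 5.22 (4.50 to 6.06) and 4.48 (3.71 to 5.44), whereas the 56 other members ranged from 0.712 to 1.42 and from 0.776 to 1.17. The comparison of domains was chosen after its values were seen, and it was not matched for depth. Among neurons, Cajal-Retzius-like cells had 62.4 CPM and glutamatergic-like neurons 19.2 CPM in the septal explants, and 33.3 and 9.05 in the vesicle.

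The other members differed far less between domains, and the genes named here were picked for their values. In subpallial-like over pallial-like APs the highest other member was *Ndufs4*, an accessory subunit of the peripheral arm of complex I, in both libraries, with folds of 1.34 and 1.24. Subpallial-like APs were unlike sets of cells in the 2 libraries, as given above. In hem-like over pallial-like APs the lowest was *Cox5a* in both, at 0.794 and 0.724. Septal-like over pallial-like APs had *Cox7a2l* as the highest in the septal explants, at 1.42. Between neuron types, *Ndufv3* was the lowest member in Cajal-Retzius-like cells over glutamatergic-like neurons in both libraries, at 0.644 and 0.798. The medians of the other members over these comparisons lay between 0.935 and 1.06. Among the named domains, the share of the 63 genes ran from 1.99% in septal-like to 2.20% in subpallial-like APs of the septal explants, and from 1.23% in septal-like and hem-like to 1.31% in pallial-like APs of the vesicle. The domains were not matched for depth. Pallial-like vesicle clusters of 585 and 313 cells had shares of 1.53 and 1.14%, at medians of 9739 and 29684 UMIs. Their shares lay further apart than those of the named vesicle domains, and the part of depth was not tested. APs without a domain had 2.08% (1256 cells) and 1.39% (1235 cells), and the clusters led by *Nkx2-1* and *Ttr* 2.095 and 1.33%.

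Erythroid-like cells of the vesicle had the lowest share of any named class, 0.890% of UMIs (0.879 to 0.901%), a fold of 0.695 over APs (0.687 to 0.704). Globin transcripts took 53.8% of their UMIs and 0.232% of those of APs. Per UMI outside mitochondrial genome, ribosomal protein and globin genes, the share of the 63 genes was instead higher, 2.85% against 1.59%, a fold of 1.795. Other classes of the vesicle lay above the APs, with 1.39% in mesenchymal-like, 1.41% in endothelial-like and 1.47% in macrophage-like cells. In the 26 septal erythroid-like cells the share was 1.20% of all UMIs and 3.43% of the others, with globin at 52.1%. With all barcodes, doublets included, 89 septal erythroid-like cells had a share of 0.958% and 527 vesicle cells one of 0.980%.

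Of 58 members tested in vesicle erythroid-like cells, 38 were lower than in APs by at least 20%, or 65.5%, where 90.9% of 13045 genes were, and 3 were higher by at least 25%, or 5.17%, where 4.55% of genes were. *Cox4i2* was counted as lower with 0 UMIs in erythroid-like cells, and it met the minimum only through its 353 UMIs in APs. The median fold of the members was 0.711 and that of all genes 0.257, a shift of -1.96 on the log2 scale, so that lower values here came with most genes lower. Per UMI outside the 3 gene groups named above, 2 members were lower by at least 20%. The median fold of all genes was 0.6645 by that denominator, and the share of all genes past the limit is not given. As to mixing of the classes, 8 AP markers summed to 212 CPM in erythroid-like cells against 2766 in APs, and neuron markers to 107 against 10140 in neurons. In turn, 8 erythroid markers summed to 2227 CPM in vesicle APs and 5859 CPM in neurons, with the globin gene *Hbb-y* in 99.9 and 100% of cells, against 519442 CPM in erythroid-like cells. The part of such shared RNA in these folds was not tested.

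*Cox6b2* was the highest member in erythroid-like cells, with 105 CPM (93.4 to 117) against 14.0 in APs, a fold of 7.48 (6.61 to 8.44). In mesenchymal-like cells it was at 28.8 CPM. In the 26 septal erythroid-like cells it was at 94.7 CPM (73.6 to 120), near the 97.9 CPM of septal-like APs, but these cells also held AP markers at 535 CPM and neuron markers at 901 CPM, whose part in the value was not tested. *Ndufa6* followed with 155 against 95.04 CPM, a fold of 1.62 (1.48 to 1.79), *Ndufb2* with 93.2 against 65.3 CPM, 1.43 (1.26 to 1.61), and *Cox6a1* with 1.15 (1.07 to 1.24). These last 3 genes were also over 25% higher in neurons over all cells of the vesicle, but not in the septal explants. At matched depth their vesicle folds in neurons were only 1.06, 1.11 and 1.09. The erythroid folds are not given at matched depth, and the median was 5432 UMIs in erythroid-like cells against 11212 in APs. Among the lowest were the accessory subunit *Ndufb5*, at 104 against 327 CPM, a fold of 0.319 (0.284 to 0.357), and *Cox5a*, at 206 against 633 CPM, a fold of 0.326 (0.300 to 0.353). Both stayed below 1 per UMI outside the 3 gene groups, at 0.824 and 0.841. *Cox4i2* and *Cox7a1* had no UMI in erythroid-like cells. The exact intervals of their folds over APs ended at 0.499 and 0.941, and *Cox7a1* had too few UMIs to be tested. Complexes I, III and IV had like folds of 0.692, 0.714 and 0.693, and the core of complex I had 0.613.

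**Figure D5:**
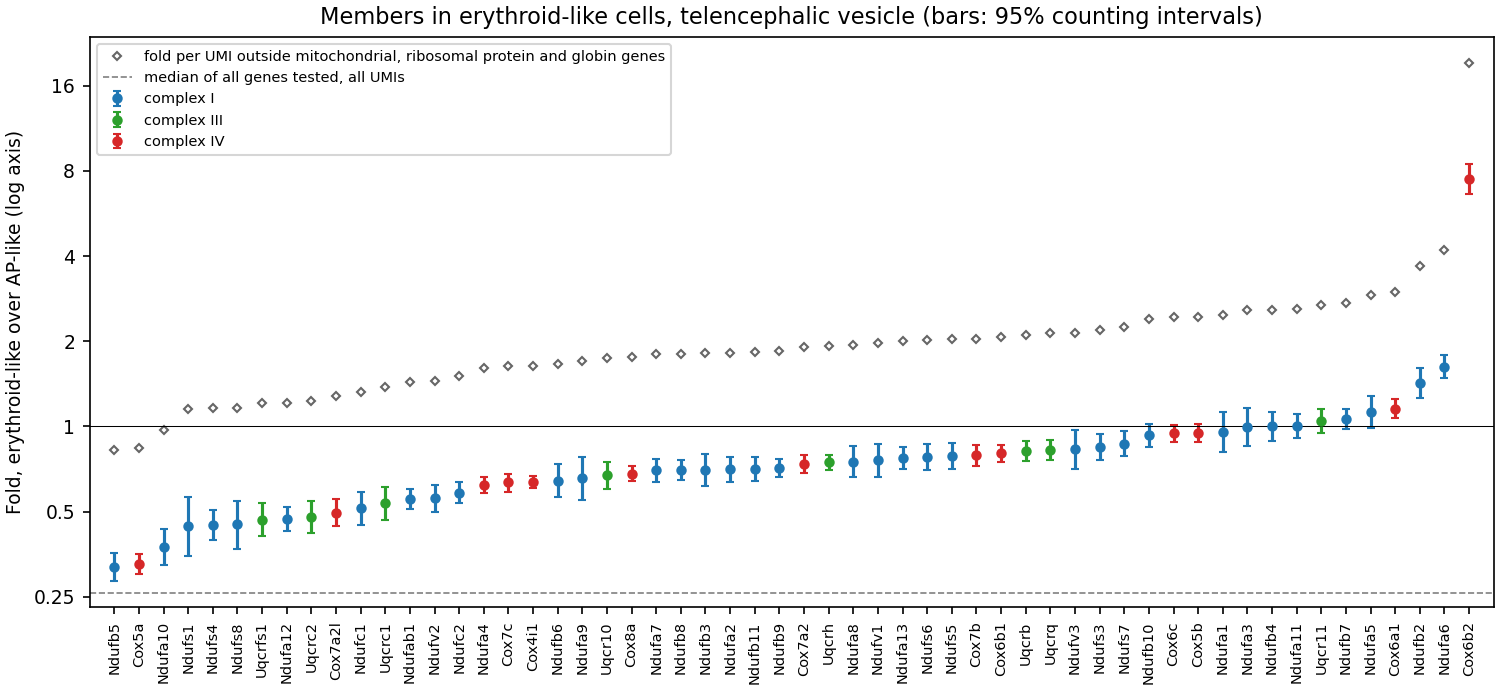
Fold of erythroid-like over AP-like cells (vertical, log axis) for 56 tested members with UMIs in erythroid-like cells of the vesicle, ordered by size, with 95% counting intervals, from all UMIs (coloured by complex) and per UMI outside mitochondrial genome, ribosomal protein and globin genes (open diamonds). Most members lie below 1 by all UMIs and above 1 by the other UMIs, and *Cox6b2* stands apart at 7.48.

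The other genes of the pathway were counted by the same limits, first in neurons over APs. The counts stand against 36.3% of all genes higher and 32.9% lower in the septal explants, and 31 and 40.5% in the vesicle. The 13 mitochondrial genome subunits summed to folds of 1.12 and 1.23, with 1 and 3 of them past the upper limit and 1 and 1 past the lower, and to 1.08 and 1.10 at matched depth, although the cell filter acts on the mitochondrial share. The highest were *mt-Co1* at 1.255 in the septal explants and *mt-Co3* at 1.52 in the vesicle. Complex II and cytochrome c, 6 genes, had none higher and 2 and 3 lower, with *Sdha*, the flavin subunit of complex II, at 0.657 and 0.594. Of 18 ATP synthase genes, 2 were higher and 2 lower in each library. *Atpif1*, an inhibitor of the synthase, had the highest fold at 1.77 and 2.01, while *Atp5g2*, one of the genes for the ring subunit, had 0.638 and 0.735.

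Assembly factors split both ways, as genes in general did. In the septal explants 12 were higher and 9 lower of 35 tested, and in the vesicle 7 higher and 13 lower of 37. *Ndufaf3*, a factor for complex I, had folds of 2.065 and 2.15, *Cox20* 1.80 and 1.998, and *Nubpl*, which supplies iron-sulfur clusters, 0.543 and 0.454. Of the biogenesis regulators tested, 1 of 11 was higher and 7 lower in the septal explants, and 1 of 12 higher and 9 lower in the vesicle. The one higher was *Esrra*, an estrogen-related receptor, at 2.74 and 2.18, and among the lower were the coactivator *Pprc1* at 0.339 and 0.258 and, in the septal explants, *Tfam*, which packages mitochondrial DNA, at 0.478. Ribosomal protein genes, outside the pathway, had none higher and 74 and 53 of 76 lower.

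In erythroid-like cells over APs the transcripts of the mitochondrial genome took 2.44% of UMIs against 2.42% in the vesicle, and 0.904% in the 26 septal erythroid-like cells against 2.11% in septal APs. The cell filter acts on this share. The counts of vesicle genes that follow stand against 4.55% of all genes higher and 90.9% lower. Of the 13 mitochondrial subunits 2 were higher and 8 lower, with *mt-Co3* the highest at 1.59 and *mt-Nd5* the lowest at 0.503. All 6 genes of complex II and cytochrome c were lower, and of 18 ATP synthase genes 1 was higher, *Atpif1* at 2.54, and 13 were lower. Assembly factors had 2 higher and 33 lower of 37, biogenesis regulators 1 higher and 10 lower of 12, with *Ppargc1a*, a coactivator of mitochondrial biogenesis, at 0.0667 from 3 UMIs (0.0138 to 0.195), and ribosomal protein genes none higher and 56 lower of 76.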

How the data were processed

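Both libraries held raw counts that the authors deposited, the number of UMIs per gene and barcode, with no normalisation. The authors made the septal counts with Cell Ranger 2.1.1 and mm10 with reporter sequences added. For the vesicle, the deposited file header names Cell Ranger 7.1.0 and the submitters' processing notes name mm10. Whether intronic reads were counted there is not given in the sources used here. Cell Ranger counts uniquely mapped reads, so that members with near-identical pseudogenes may be undercounted, and 8 members, *Cox4i1* and *Cox7c* among them, overlap another annotated gene on the same strand.

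Cells were filtered after the study's methods, with a share of mitochondrial UMIs no further than 3 MAD from the median (383 and 1812 barcodes removed) and without Scrublet doublets (57 and 620). Clustering in scanpy 1.11.5 used 2000 variable genes without members, other pathway genes, cell cycle genes and reporters, 30 components, 15 neighbours and Leiden (igraph 0.11.9) at a resolution of 1.5. A cluster needed 3 markers. For AP-like and neuron-like clusters a z score margin of 0.5 between these 2 classes was needed as well. Other classes had z score limits of their own, and leading genes of another class could leave a cluster without a name. The rule for names was changed on 2 occasions after clusters were known, the second to leave 4 clusters led by other genes without a domain or neuron type. UMIs were summed per class and given as CPM with exact 95% Poisson intervals, and folds with intervals from the exact binomial split. No p-value was computed, since cells are not replicates. Genes with at least 200 UMIs over both classes were counted when higher by 25% or lower by 20%, the reciprocal. Folds were checked on simulated data. The members and lists were chosen with earlier results of these data known. Named genes are the 6 highest and 6 lowest folds per library, the 5 members with most UMIs, the isoform families, the core subunits of complexes I and III, and the 4 highest and 4 lowest erythroid folds. The values of 1 member are not reported here. The same software also comprised scikit-learn 1.9.0, matplotlib 3.10.9, Python 3.11.15 with scipy 1.17.1, anndata 0.12.19, pandas 2.3.3 and numpy 2.4.6.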

Additional observations from a re-analysis of the deposited data

How the results depend on the processing

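No paired analysis was possible because each condition has 1 library. The neuron over AP fold of the septal explants stayed above 1 under most alternatives but fell below it, to 0.947, per UMI outside mitochondrial genome, ribosomal protein and globin genes. It was 1.01 divided by the median of all genes, 1.03 as a mean of cells, in the middle of the depth range, thinned to 8000 UMIs and with depth bands weighted alike (1.032, 1.031, 1.029 and 1.032), and 1.003 against APs with few cell cycle transcripts. In the vesicle the same fold of 1.07 turned to 0.936 in the middle of the depth range and to 0.932 with depth bands weighted alike, the alternative added after seeing the data. It was 1.04 with all barcodes, 1.05 with doublets kept, 1.08 with another seed, 1.05 with classes by the axis (1.046), 1.02 with the other denominator (1.016), 1.16 divided by the median, 1.02 as a mean of cells (1.018), 1.02 thinned to 3500 UMIs and 1.01 against low-cycle APs.

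Septal members higher in neurons numbered 1 with the other denominator and 1 at 1.5-fold, and members lower numbered 7 and 2. Vesicle members higher numbered 6 with all barcodes, 4 with classes by the axis, 23 divided by the median, 4 as a mean of cells, 2 in the middle of the depth range, 5 thinned, 2 at 1.5-fold and 3 with depth bands weighted alike. Vesicle members lower numbered 2 by the axis, 7 with the other denominator, 11 in the middle of the depth range, 2 at 1.5-fold and 12 with depth bands weighted alike. Except for depth bands weighted alike, shares over all genes are not given for these settings. Over the 12 other settings that keep the limits and the filter, *Ndufv3* stayed higher and *Ndufa12* and *Uqcr10* stayed lower in both libraries. *Cox7a2l* stayed higher in the vesicle, and *Cox6b2* and *Ndufs6* stayed lower in the septal explants.

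The erythroid fold of 0.695 turned to 1.79 with the other denominator (1.795) and to 2.70 divided by the median of all genes. It was 0.769 with all barcodes, 0.765 with doublets kept, 0.636 as a mean of cells, 0.624 in the middle of the depth range, 0.645 thinned and 0.659 against low-cycle APs. Members lower in erythroid-like cells numbered 2 with the other denominator, 1 divided by the median and 22 at 1.5-fold. Shares over all genes are not given for these settings. The cause of the changes between settings was not tested. Depth limits the low isoforms, and with 1 library per condition no value here has a replicate check.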
